A study of Homo sapiens with 6 samples.

Results

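In K562 cells treated with hyperoside, 5 members of a set of interferon-stimulated and antigen presentation genes rose and 9 fell. These were 42.4% of the 33 members tested, near the 45.3% of all 15095 tested genes that changed at the same threshold. RSAD2, DDX60, IFIT3, OAS3 and IFIT2, which encode antiviral effectors, rose between 1.74-fold and 2.94-fold. IRF9, ISG15, USP18, IFITM1, BST2, SAMHD1 and the antigen presentation genes TAP1, TAP2 and HLA-C fell, to between 48.9% and 73.5% of their control level. B2M and HLA-E, the most abundant antigen presentation members, were not called. The 38 genes were chosen by symbol from the 24960 genes of the deposited table, as genes known to be induced by interferons or to present peptides. They were compared between the control group (n = 3 libraries) and the hyperoside (2 mM) group (n = 3 libraries) of K562, a chronic myeloid leukemia (CML) cell line of erythroid character. Hyperoside is the galactoside of the flavonol quercetin. The labels name control cells only as controls and do not say what vehicle, if any, they received, and the time in hyperoside before extraction of the sequenced RNA is not given in the sources used here. Nothing in the sources says that the 3 libraries of a group came from separate cultures, so p-values measure the spread between these libraries, which may be technical.

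Interferons are secreted proteins that cells release when they sense viral nucleic acids. Receptors on the cell surface pass the signal through JAK kinases to STAT proteins, and STAT2 joins IRF9 in the complex ISGF3, which binds the interferon-stimulated response element in promoters. The induced genes encode proteins that block viral entry, RNA, translation and budding, and some have a low level without any interferon. Interferons also raise the machinery that cuts proteins into peptides, carries the peptides into the endoplasmic reticulum through the transporter TAP and loads them on HLA class I molecules with the light chain B2M. K562 cells are known for very little HLA class I at the surface and are a standard target of natural killer cells.

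Library totals ran from 35613283 to 36754725 gene counts. Values are given as normalized CPM (the count of a gene as a share of the library's total, scaled by edgeR's TMM method), and levels of different genes are compared only as FPKM, which the authors also scaled to gene length. A gene was called higher or lower at an adjusted p under 0.05 from edgeR (the quasi-likelihood test, with p adjusted by Benjamini-Hochberg across all 15095 genes tested). Erythroid markers of K562 were abundant, with 10 of 10 listed genes tested (3 called higher and 4 lower) and a summed level of 7733 to 9568 FPKM in the control libraries and 5687 to 6872 FPKM in the hyperoside libraries. Of 7 lymphocyte markers 3 were tested, their sum ran from 36.7 to 44.1 FPKM in the control and from 49.1 to 55.1 FPKM in the hyperoside libraries, nearly all from CD3D, and MS4A1 and GNLY had at most 1 count. The table held 3 monocyte markers, of which LYZ and CSF1R were tested and called higher, with a sum of 32.7 to 37.4 FPKM in the control and 50.3 to 53.4 FPKM in the hyperoside libraries, nearly all from LYZ, while CD14 had between 0 and 7 counts. The 4 fibroblast markers summed to between 1.08 and 1.62 FPKM over the 6 libraries. The part of these marker levels in the results for the interferon genes was not tested.

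Of the 38 members, 33 passed the filter on low counts. HERC5, IFIT5, IFI44, IFI44L and OAS2 did not, with at most 10 counts in any library. The 14 called members made up 42.4% of the 33 tested, and over all tested genes 45.3% were called, so the share of called members was near the background. By direction, 5 members were called higher, where 22.1% of all tested genes were, and 9 were called lower, where 23.2% of all tested genes were. The median log2 fold change of the tested members was -0.14, against 0.00316 over all tested genes. At a fold change above 2 in addition, 3 members were higher (IFIT3, DDX60 and RSAD2), with a background of 6.43%, and 1 was lower (USP18), with a background of 3.76% (10.2% for either direction). The libraries of the groups did not overlap in 6 members that were higher and 12 that were lower, and over all tested genes this held for 27.1% and 27.3% (54.4% for either direction). Each called member had at least 19 counts in every library. In bulk RNA a lower level in every cell and a smaller number of expressing cells cannot be told apart.

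**Figure D1:**
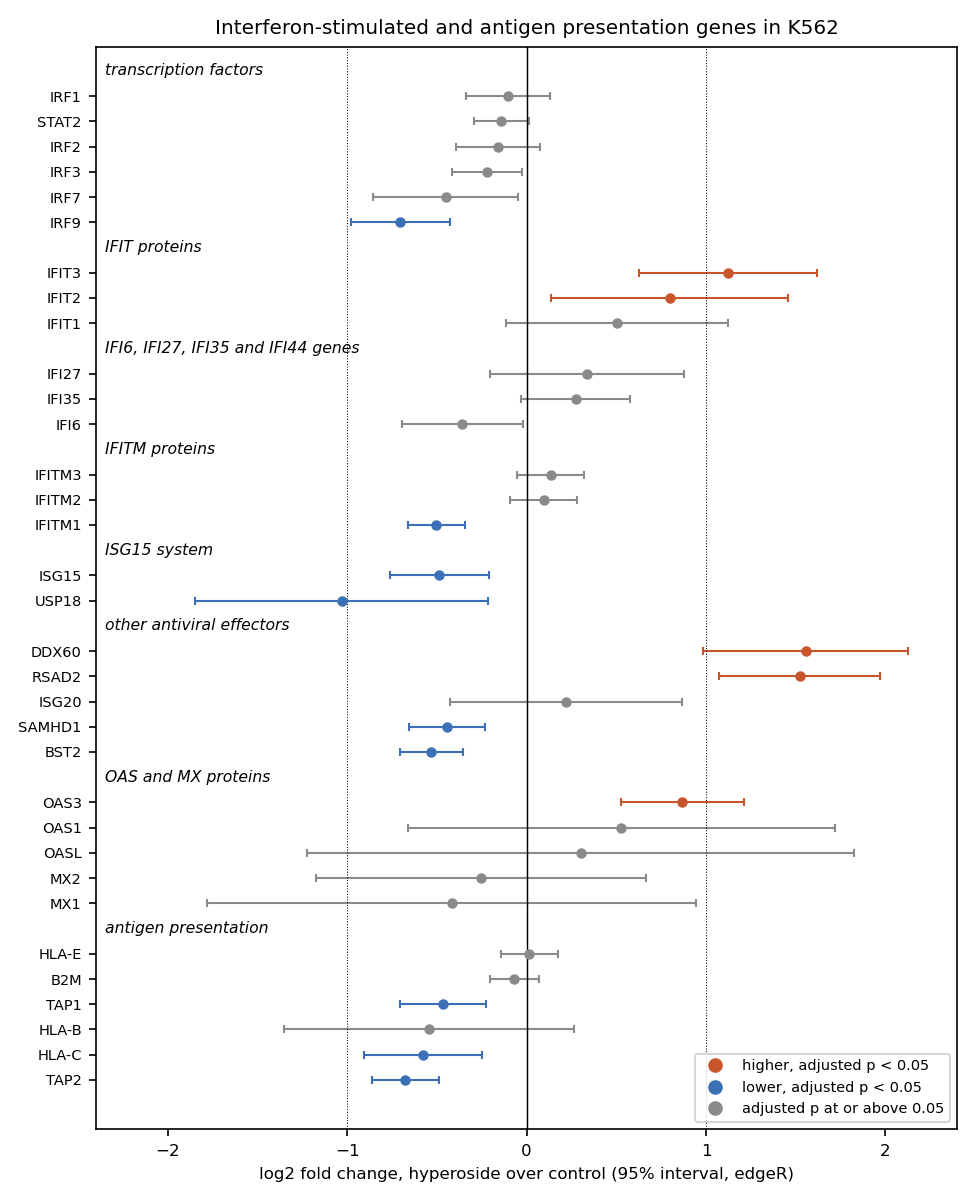
Log2 fold change of each of the 33 tested members in the hyperoside over the control group, grouped by role, as points with 95% intervals from edgeR and n = 3 libraries per group. Orange marks the 5 members called higher, blue the 9 called lower and grey the others, and dotted lines mark a fold change of 2.

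The response element to which ISGF3 binds could be looked for in the promoters of 28 of the 38 members, for which RefSeq start sites on GRCh38.p14 were at hand (no entry was found for IRF2, IRF3, IRF7, IFIT2, IFITM2, MX2, OAS2, OASL, USP18 and HLA-E). The core searched was GAAA, any 2 bases and GAAA again, on both strands (TTTC, any 2 bases and TTTC where it lies on the other strand), in the 250 bases before and the 50 bases after each start. It was found in 20 of these 28 members (71.4%) and in 4.38% of the 27305 genes in the promoter table. Members were chosen as interferon-induced genes, so this share describes the choice and is no test. The core was present in all 4 members called higher that had an entry, IFIT3, OAS3, DDX60 and RSAD2, and in 5 of the 8 members called lower that had an entry, IFITM1, ISG15, BST2, TAP1 and TAP2. It was also present in 7 of 12 members that were tested and not called, among them B2M. The stretches below hold every copy of the core that lies before the start, in capitals. Each has 12 bases on each side, or fewer where the transcript start is reached, as in OAS3. They are shown because the core occurs in members that moved in opposite directions. Members that rose come first:
IFIT3, chr10:89332423-89332499, plus strand: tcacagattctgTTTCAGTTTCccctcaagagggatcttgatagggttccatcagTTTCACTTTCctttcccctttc
DDX60, chr4:168318784-168318852, minus strand: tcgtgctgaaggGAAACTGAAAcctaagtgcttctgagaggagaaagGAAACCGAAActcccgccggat
RSAD2, chr2:6877620-6877653, plus strand: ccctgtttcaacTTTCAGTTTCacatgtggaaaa
OAS3, chr12:112938319-112938473, plus strand: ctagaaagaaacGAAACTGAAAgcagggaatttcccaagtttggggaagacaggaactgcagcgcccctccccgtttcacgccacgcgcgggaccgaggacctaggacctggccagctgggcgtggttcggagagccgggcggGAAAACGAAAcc
The next stretches are from members that fell:
ISG15, chr1:1013372-1013411, plus strand: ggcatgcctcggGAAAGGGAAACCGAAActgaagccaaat
BST2, chr19:17405733-17405772, minus strand: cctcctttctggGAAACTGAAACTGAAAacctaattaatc
IFITM1, chr11:313988-314021, plus strand: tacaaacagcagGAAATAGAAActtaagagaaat
TAP1, chr6:32853811-32853850, minus strand: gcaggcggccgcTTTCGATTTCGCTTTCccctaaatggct
TAP2, chr6:32838776-32838809, minus strand: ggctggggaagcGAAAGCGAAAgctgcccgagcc
The last are from members that were not called, the neighbor of IFITM1 and the class I light chain:
IFITM3, chr11:320874-320924, minus strand: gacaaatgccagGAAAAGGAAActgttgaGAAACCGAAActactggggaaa
B2M, chr15:44711361-44711400, plus strand: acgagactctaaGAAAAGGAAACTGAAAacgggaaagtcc
In ISG15, BST2, TAP1 and B2M a pair of cores overlapped, so that 1 run of capitals holds both. The IFIT3 stretch belongs to the downstream of its start sites, and another pair of cores lay before the upstream one. IFITM1 had a further core that ran across its start and is not printed. The gamma-activated site TTCNNNGAA, which reads the same on both strands and can overlap the other core, was found in 10 of the 28 members (35.7%) and in 9.38% of all genes in the table. It was in the promoter of IRF9 and in that of IRF1, which interferon gamma induces. A match is a run of letters and was not tested for binding.

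**Figure D2:**
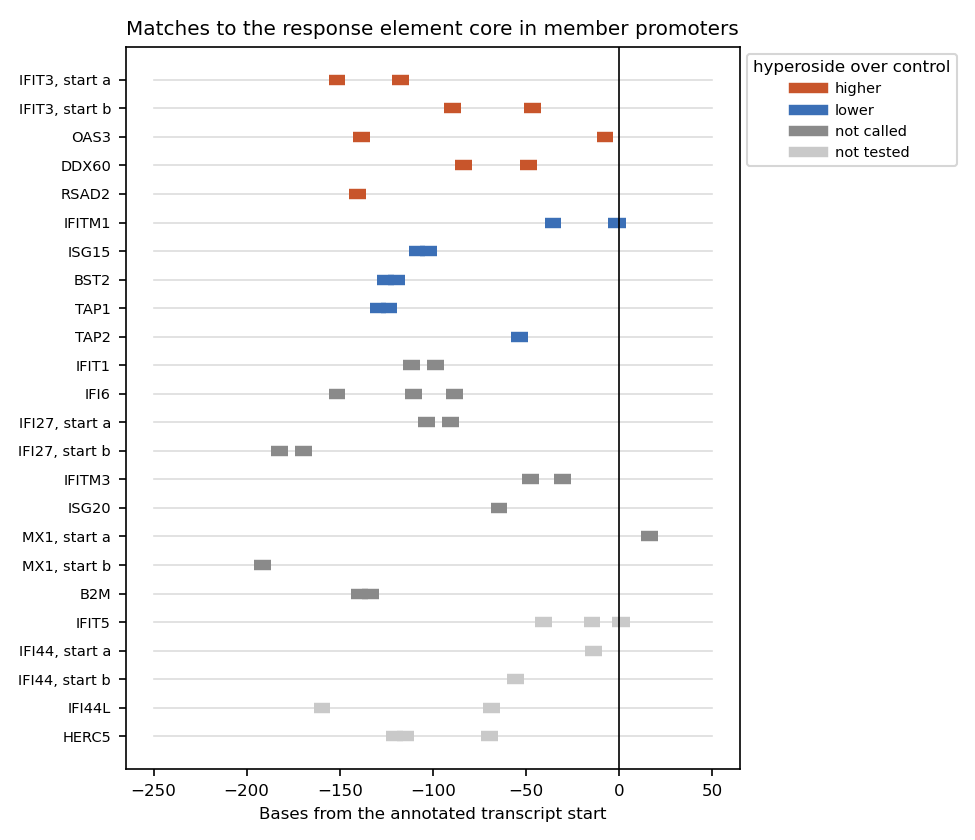
Position of each match to the response element core relative to the annotated transcript start, in bases, for the 20 members with a match (a row per start site, with start a and start b where a gene has a pair of starts with a match). Orange, blue, grey and light grey rows are members called higher, called lower, not called and not tested, and rows of each kind have matches before the start.

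Among the transcription factors of the pathway, IRF9 was the member that was called, and STAT2, its partner, was not. IRF9, the subunit that gives ISGF3 its DNA sequence preference, had 12.8, 12.3 and 14.1 CPM in control replicates 1, 2 and 3 and 8.12, 7.49 and 8.47 CPM in hyperoside replicates 1, 2 and 3. All hyperoside libraries lay below all control libraries (log2 fold change -0.70, standard error 0.13, adjusted p = 0.000281), so that IRF9 stood at 61.4% of its control level. STAT2 had 98.4, 101 and 101 CPM in the control libraries and 91.4, 93.6 and 87.9 in the hyperoside libraries, and although these did not overlap, its log2 fold change of -0.14 (95% interval -0.29 to 0.01, adjusted p = 0.12) was not called. IRF3 and IRF7 are the factors that switch on interferon genes after nucleic acids are sensed. IRF3 had 71.2, 55.4 and 60.6 CPM in the control and 53.4, 54.4 and 52.9 CPM in the hyperoside libraries, which did not overlap, and its log2 fold change was -0.22 (adjusted p = 0.061). The IRF7 libraries overlapped, with 7.71, 5.54 and 7.56 CPM against 3.92, 5.69 and 5.59 CPM and a log2 fold change of -0.45 (adjusted p = 0.064). Without control replicate 2 both were called, with an adjusted p of 0.0246 for IRF3 and 0.0262 for IRF7. IRF1, an activator that interferon gamma induces, had 17.7, 16.3 and 18.4 CPM in the control and 15.9, 15.1 and 17.8 CPM in the hyperoside libraries, and IRF2, which competes with it, had 18.0, 19.5 and 22.1 CPM and 19.2, 17.3 and 17.0 CPM. Both overlapped between the groups, with log2 fold changes of -0.10 (95% interval -0.34 to 0.13) and -0.16 (95% interval -0.39 to 0.07). Per length, IRF3 and STAT2 were the most abundant of these factors in the control group, with 31.8 ± 3.47 and 19.1 ± 0.761 FPKM (SD, n = 3), and IRF2 the least, with 2.22 ± 0.284 FPKM. All 6 factors had log2 fold changes below 0, between -0.70 and -0.10, and kept that sign under every scaling and every other alternative run. The exons of IRF9 overlap those of AL136295.5 on the same strand in GENCODE 29, so reads of either may have been counted for the other. Exons of IRF3 overlap those of BCL2L12, and exons of IRF1 those of AC116366.3 and C5orf56, on the opposite strand.

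The steepest rises among the members were those of DDX60 and RSAD2. RSAD2 encodes viperin, an enzyme that turns a nucleotide into a chain terminator of viral RNA synthesis, and lies at chr2:6865885-6898239 of GRCh38.p14. It had 60, 90 and 100 counts in the control and 252, 226 and 263 counts in the hyperoside libraries, or 1.71, 2.56 and 2.80 against 6.87, 6.15 and 7.28 CPM. Every hyperoside library was above every control library, and the rise was 2.87-fold (log2 fold change 1.52, standard error 0.21, adjusted p = 1.55e-05). Its neighbor in the opposite orientation is CMPK2, which encodes a nucleotide kinase of mitochondria and is no member of the set. CMPK2 rose from 12.2 ± 1.57 to 31.3 ± 3.59 CPM (SD, n = 3 each, log2 fold change 1.36, standard error 0.12, adjusted p = 8.64e-08). Exons of both genes overlap on opposite strands in GENCODE 29, and since the use of strand in counting is not given in the sources used here, reads in the shared stretch cannot be assigned. DDX60, a helicase of the innate response, had 58, 42 and 38 counts in the control and 151, 113 and 156 counts in the hyperoside libraries, or 1.65, 1.19 and 1.06 against 4.11, 3.08 and 4.32 CPM. The groups were again apart, by 2.94-fold (log2 fold change 1.56, standard error 0.27, adjusted p = 0.000156). Both genes remained at a low level, with 1.85 ± 0.150 FPKM for RSAD2 and 0.386 ± 0.0664 FPKM for DDX60 in the hyperoside group.

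IFIT proteins bind viral RNA and sit next to each other in a cluster on chromosome 10. IFIT3, at chr10:89327997-89340968, had 1.88, 3.18 and 2.57 CPM in the control and 4.93, 4.77 and 6.95 CPM in the hyperoside libraries. The lowest hyperoside library was above the highest control library, and IFIT3 rose 2.18-fold (log2 fold change 1.12, standard error 0.24, adjusted p = 0.000817). IFIT2, which forms complexes with IFIT3, had 1.28, 1.19 and 1.18 CPM in the control and 2.64, 2.07 and 1.63 CPM in the hyperoside libraries. Its groups did not overlap either and its rise was 1.74-fold, but the adjusted p of 0.0468 was close to the threshold (log2 fold change 0.80, standard error 0.31). In DESeq2 it was 0.0589, without a filter on low counts 0.0568 and with a replicate block 0.0762, and it stayed under 0.05 in 1 of the 6 fits that left out a library, the fit without hyperoside replicate 3, reaching 0.213 without hyperoside replicate 1. IFIT1, which recognizes the cap of foreign RNA, had 1.79, 1.62 and 1.26 CPM against 1.85, 2.48 and 2.30 CPM. Its libraries did not overlap, but its log2 fold change of 0.50 (95% interval -0.11 to 1.12, adjusted p = 0.174) was not called. IFIT5 had 10, 7 and 0 counts in the control and 4, 7 and 3 counts in the hyperoside libraries, too few to be tested. The IFIT2 exons overlap those of LIPA on the opposite strand and of AL353751.1 on the same strand in GENCODE 29, so some IFIT2 counts could belong to these genes.

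Of the oligoadenylate synthetases, which sense double-stranded RNA and activate RNase L, OAS3 was called. OAS3, at chr12:112938474-112973251, had 5.46, 5.91 and 8.45 CPM in the control and 11.4, 12.9 and 11.9 CPM in the hyperoside libraries. The groups were apart, with control replicate 3 the control library nearest to the hyperoside group, and OAS3 rose 1.83-fold (log2 fold change 0.87, standard error 0.16, adjusted p = 0.000302). Its neighbors on chromosome 12 were at the edge of detection, with 13, 19 and 13 counts in the control and 10, 19 and 38 counts in the hyperoside libraries for OAS1. OAS2 had 2 to 9 counts and the related OASL had 3 to 13 counts per library. The MX genes encode GTPases that trap viral nucleocapsids. MX1 had 8, 10 and 34 counts in the control and 19, 15 and 6 counts in the hyperoside libraries, and MX2 had 21, 45 and 38 counts in the control and 27, 32 and 31 counts in the hyperoside libraries. The groups overlapped in OAS1, OASL, MX1 and MX2, and their intervals were wide. They ran from -0.66 to 1.72 for the log2 fold change of OAS1 and from -1.78 to 0.94 for that of MX1. A difference was not detectable with these low counts and this spread between libraries. In the remaining antiviral effectors at low level, ISG20, an exonuclease that degrades RNA, had 1.71, 1.96 and 1.23 CPM in the control and 1.69, 1.80 and 2.21 CPM in the hyperoside libraries, and these overlapped (adjusted p = 0.59).

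ISG15 and USP18, both of the ISG15 system, fell. ISG15 is a ubiquitin-like protein that is attached to other proteins by the ligase HERC5 and removed by USP18, which also damps signaling at the interferon receptor. ISG15, at chr1:1013497-1014540, had 13.3, 12.2 and 13.6 CPM in the control and 9.05, 8.41 and 10.4 CPM in the hyperoside libraries. The groups did not overlap, and the level fell to 71.4% of control (log2 fold change -0.49, standard error 0.13, adjusted p = 0.00587). Exons of ISG15 overlap those of AL645608.3 on the opposite strand in GENCODE 29, and the use of strand in counting is not given. USP18 had 52, 50 and 53 counts in the control and 19, 29 and 30 counts in the hyperoside libraries, or 1.48, 1.42 and 1.48 against 0.518, 0.790 and 0.831 CPM. These were apart too, and USP18 stood at 48.9% of control (log2 fold change -1.03, standard error 0.39, adjusted p = 0.0378). The USP18 call was lost with a replicate block (adjusted p = 0.0612) and in each of the 6 fits that left out a library (adjusted p = 0.0552 to 0.127), while the log2 fold change stayed between -1.14 and -0.85 in those 6. HERC5 had 4 counts in control replicate 2 and 0 in every other library. A count of 0 allows up to 3 counts in that library (counting error only). UBE2L6, the conjugating enzyme of ISG15 and no member of the set, fell from 50.7 ± 2.43 to 29.9 ± 3.10 CPM (SD, n = 3 each, log2 fold change -0.76, standard error 0.10, adjusted p = 4.57e-06).

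**Figure D3:**
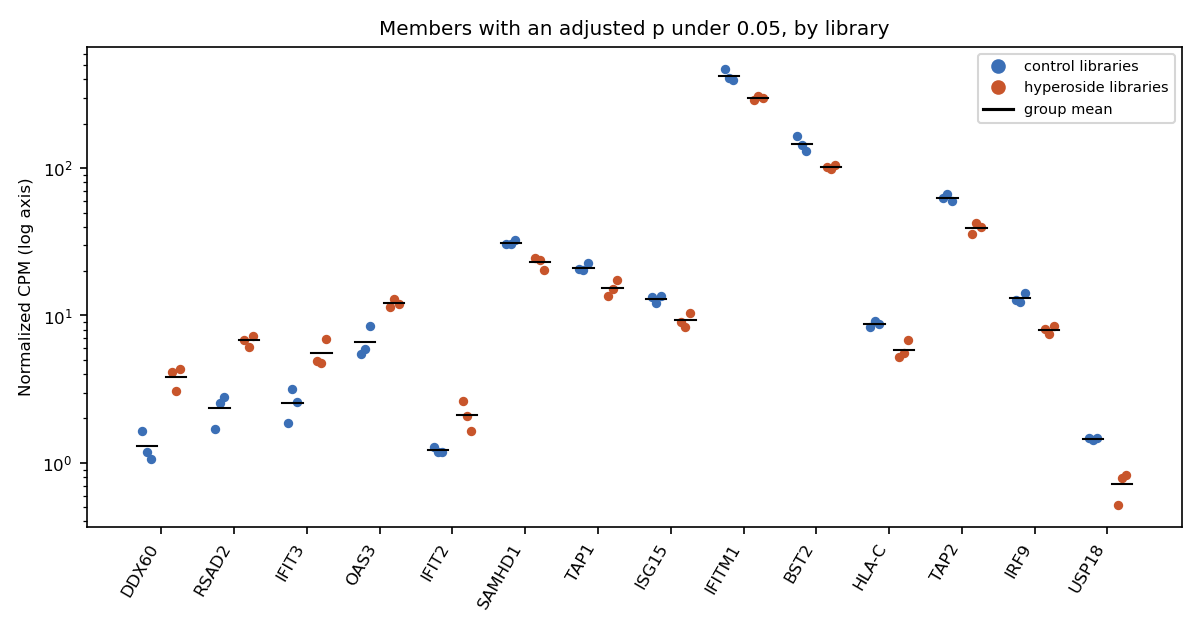
Normalized CPM on a log axis of the 14 called members in each of the 3 control libraries (blue) and 3 hyperoside libraries (orange), with a bar at each group mean, ordered by log2 fold change. In every one of these genes the libraries of the groups are apart, as in 54.4% of all tested genes. The genes were called on the same libraries, so this adds no support to the calls. The highest library of a member that rose is at 12.9 CPM (OAS3), while those that fell span 0.518 (USP18) to 473 CPM (IFITM1).

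IFITM1 was the most abundant member and fell, while the neighboring IFITM2 and IFITM3 were not called. IFITM proteins sit in membranes and block the fusion of viruses. IFITM1, at chr11:314040-315272, had 624 ± 46.1 FPKM in the control group (SD, n = 3), which ranked 104 among the 24960 genes. It had 473, 408 and 394 CPM in the control and 288, 309 and 301 CPM in the hyperoside libraries, and the fall to 70.5% of control left no overlap (log2 fold change -0.51, standard error 0.08, adjusted p = 3.31e-05). IFITM2 had 82.0, 69.8 and 65.3 CPM against 73.8, 76.0 and 82.0 CPM, with a log2 fold change of 0.09 (95% interval -0.09 to 0.28). IFITM3 had 113, 96.4 and 86.2 CPM against 105, 109 and 110.2 CPM, with a log2 fold change of 0.13 (95% interval -0.05 to 0.32). Both overlapped between the groups, mainly through control replicate 1, which had the highest control value in each. Without that library both were called higher, with a log2 fold change of 0.20 and an adjusted p of 0.0284 for IFITM2 and 0.25 and 0.00412 for IFITM3. The 95% interval of IFITM1 (-0.66 to -0.35) did not overlap those of its neighbors, though the difference between the genes was not itself tested. The IFITM genes are close copies of each other, and IFITM1 and IFITM2 have overlapping exons in GENCODE 29, so reads common to them make their counts uncertain.

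BST2 and SAMHD1, which restrict retroviruses at different steps, fell by similar proportions. BST2, or tetherin, holds budding virions at the cell surface and had 166, 143 and 132 CPM in the control and 101, 98.0 and 105 CPM in the hyperoside libraries. All hyperoside libraries were below all control libraries, and BST2 stood at 69.2% of control (log2 fold change -0.53, standard error 0.08, adjusted p = 5.53e-05). SAMHD1, which hydrolyzes deoxynucleotides, had 30.5, 30.5 and 32.8 CPM in the control and 24.7, 23.7 and 20.4 CPM in the hyperoside libraries. It was also apart between the groups, at 73.5% of control (log2 fold change -0.44, standard error 0.10, adjusted p = 0.00147). Its exons overlap those of TLDC2 on the opposite strand in GENCODE 29. The IFI genes were not called. IFI6, a small membrane protein gene, had 7.76, 7.33 and 8.73 CPM against 7.14, 5.75 and 5.68 CPM and was apart between the groups (log2 fold change -0.36, adjusted p = 0.0767), and without hyperoside replicate 1 it was called lower (log2 fold change -0.48, adjusted p = 0.0476). IFI27 had 2.13, 2.73 and 2.52 CPM against 2.32, 3.08 and 3.93 CPM and overlapped (log2 fold change 0.34, adjusted p = 0.301). IFI35 had 12.4, 11.3 and 11.2 CPM against 13.5, 11.4 and 17.3 CPM, with hyperoside replicate 3 far above the other hyperoside libraries (log2 fold change 0.27, adjusted p = 0.133), and without hyperoside replicate 2 it was called higher (log2 fold change 0.40, adjusted p = 0.0374). IFI44 had 2 to 10 counts and IFI44L 0 to 7 counts per library, so a difference was not detectable at this depth.

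Of the 6 antigen presentation members, TAP1, TAP2 and HLA-C fell, and HLA-B, B2M and HLA-E were not called. TAP1 and TAP2 encode both chains of the peptide transporter and lie in the class II region of chromosome 6. TAP2, at chr6:32821831-32838739, had 62.5, 66.8 and 59.8 CPM in the control and 36.0, 42.7 and 39.6 CPM in the hyperoside libraries. With no overlap, it fell to 62.5% of control (log2 fold change -0.68, standard error 0.09, adjusted p = 8.00e-06). TAP1, at chr6:32845209-32853704, had 20.5, 20.3 and 22.7 CPM in the control and 13.7, 15.1 and 17.3 CPM in the hyperoside libraries. These were also apart, at 72.5% of control (log2 fold change -0.46, standard error 0.11, adjusted p = 0.00294). The exons of TAP1 overlap those of PSMB8-AS1 on the opposite strand, and those of TAP2 overlap AL669918.1 on the same strand in GENCODE 29. HLA-C, a classical heavy chain, had 8.36, 9.15 and 8.79 CPM against 5.26, 5.58 and 6.78 CPM and fell to 67.0% of control without overlap (log2 fold change -0.58, standard error 0.16, adjusted p = 0.00588). HLA-B, the other classical heavy chain of the set, had 65, 40 and 48 counts in the control and 34, 26 and 48 counts in the hyperoside libraries. Its groups overlapped through hyperoside replicate 3, and its log2 fold change of -0.55 (95% interval -1.35 to 0.26, adjusted p = 0.262) was not called. HLA-B and HLA-C are near-identical over long stretches and have overlapping annotated exons in GENCODE 29, so their counts are uncertain.

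B2M, the light chain shared by all class I molecules, had 643, 641 and 621 CPM in the control and 606, 577 and 635 CPM in the hyperoside libraries. These overlapped, and its log2 fold change was -0.07 (95% interval -0.21 to 0.07, adjusted p = 0.421). HLA-E, a nonclassical heavy chain that natural killer cells read through NKG2A, had 181, 186 and 201 CPM against 192, 176 and 205 CPM. Its groups overlapped throughout, with a log2 fold change of 0.01 (95% interval -0.15 to 0.17, adjusted p = 0.896), the sign of which turned in 3 of the fits that left out a library. Both intervals lay above the estimate for HLA-C (-0.58) and above its whole interval (-0.91 to -0.25), though the difference between the genes was not itself tested. Per length the class I genes stood far apart in the control group, at 219 ± 3.26 FPKM for B2M, 63.0 ± 4.87 for HLA-E, 5.59 ± 0.355 for HLA-C and 0.920 ± 0.213 for HLA-B (SD, n = 3 each). The same order held in the hyperoside group, at 217 ± 9.50, 65.8 ± 4.81, 3.87 ± 0.499 and 0.653 ± 0.204 FPKM.

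**Figure D4:**
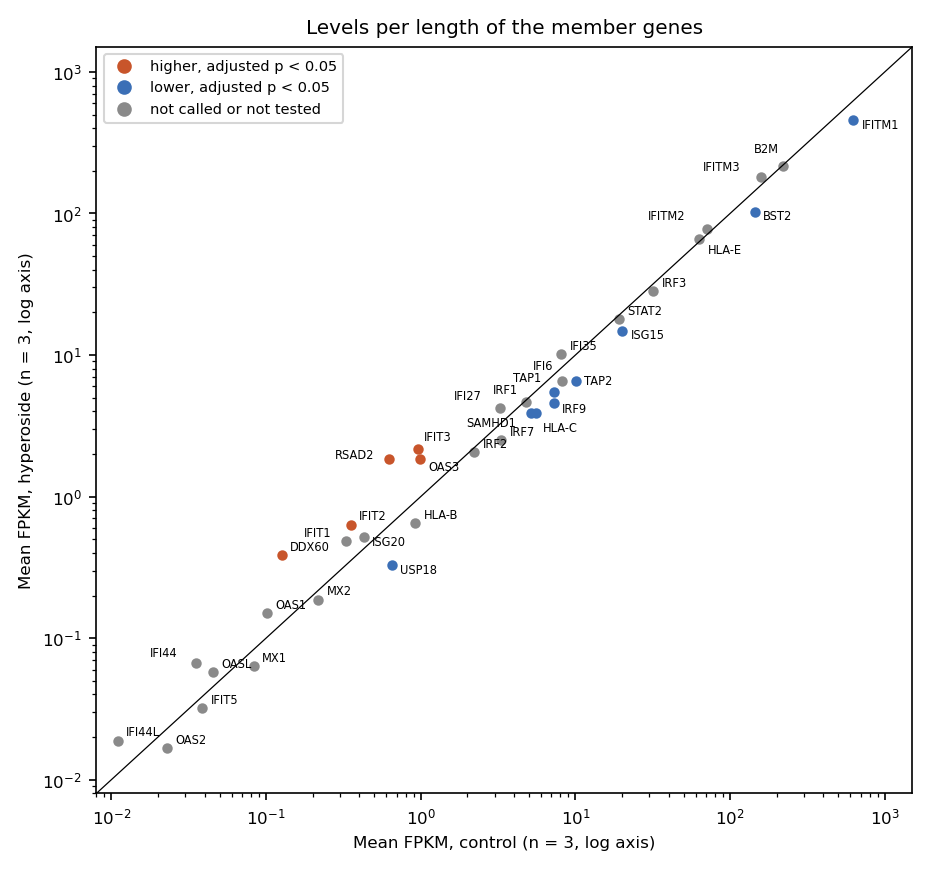
Mean FPKM of each member in the hyperoside group against the control group, both on log axes with n = 3 libraries each, and a line of equal level. HERC5, which is listed at 0 in every hyperoside library, is left out. The 5 members called higher (orange) lie between 0.126 and 0.985 FPKM in the control group, and of those called lower (blue) all but USP18 lie at 5.15 FPKM or above.

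The members that rose were expressed at a lower level than most of those that fell. In the control group the 5 members that rose had means between 0.126 ± 0.0266 FPKM (DDX60) and 0.985 ± 0.261 FPKM (OAS3), and apart from USP18, with 0.649 ± 0.0208 FPKM, the members that fell had means between 5.15 ± 0.324 FPKM (SAMHD1) and 624 ± 46.1 FPKM (IFITM1). With genes split by their mean over all 6 libraries, 10 members were tested below 1 FPKM, with 2 called higher and 1 lower, and 23 at or above it, with 3 called higher and 8 lower. Over all tested genes, 18.4% of the 3906 below 1 FPKM were called higher and 9.40% lower, and 23.4% of the 11189 at or above it were called higher and 28.1% lower. Calls for lower expression were therefore also more common among the more abundant genes of the whole table, and no difference between the members and other genes of like level was tested.

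From the other genes of the pathway, lists were drawn up by role, with earlier results of these data known. Of their 88 tested genes, class II genes and natural killer cell ligands included, 27 were called higher and 27 lower. These were 61.4%, against 45.3% of all tested genes, and the difference was not tested. The table held 15 of 19 listed interferons, receptors and kinases. Of these 11 were tested, with 4 called higher and 3 lower, where 22.1% and 23.2% of all tested genes were. IFNG, IFNE and IFNL1 had at most 1 count in any library, so interferon transcripts of these kinds were not detectable at this depth. The listed interferons IFNA1, IFNA2, IFNB1 and IFNK had no entry in the deposited table, so their transcripts could not be assessed. The chains of the type I receptor were called in opposite directions, IFNAR1 higher, from 41.6 ± 6.75 to 67.0 ± 2.75 CPM (log2 fold change 0.69, standard error 0.10, adjusted p = 3.46e-05), and IFNAR2 lower, from 44.8 ± 1.73 to 34.8 ± 2.84 CPM (log2 fold change -0.36, standard error 0.09, adjusted p = 0.00328). IFNGR1, a chain of the interferon gamma receptor, was higher (log2 fold change 0.34), and so was the phosphatase gene PTPN2 (0.30), which was lost without hyperoside replicate 1 (adjusted p = 0.0551). TYK2, a kinase of the type I receptor, was lower (-0.31). SOCS3, a feedback inhibitor of JAK signaling that several cytokines induce, fell furthest, from 23.3 ± 2.24 to 8.17 ± 1.13 CPM (log2 fold change -1.51, standard error 0.13, adjusted p = 4.96e-08). Of 19 nucleic acid sensing genes 13 were tested, with 5 called higher and 1 lower. Over all tested genes 22.1% were called higher and 23.2% lower. In either direction 46.2% of this list were called, against 45.3% of all tested genes. MAVS, the adaptor on mitochondria of the RNA sensors, rose from 94.5 ± 3.11 to 168 ± 6.75 CPM (log2 fold change 0.83, standard error 0.07, adjusted p = 5.69e-08). MYD88, the adaptor of Toll-like receptors, had a log2 fold change of 0.98 and the kinase gene IKBKE one of 1.07, both higher. The lower gene was DHX58, a regulator of the RNA sensors, with a log2 fold change of -0.71. LYZ and CSF1R, listed as monocyte markers, were higher in the same libraries, while CD14 had between 0 and 7 counts, as given above. The part of these marker levels in the MYD88 result was not tested.

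Of 33 further interferon-stimulated genes 30 were tested, with 10 called higher and 8 lower, where 22.1% and 23.2% of all tested genes were, and a median log2 fold change of 0.08. Besides CMPK2, the genes called higher with the smallest adjusted p were IFI16, a DNA sensor, from 15.8 ± 3.96 to 46.5 ± 5.24 CPM (log2 fold change 1.56), and SAMD9L, a restriction factor of poxviruses, from 4.17 ± 1.09 to 14.3 ± 0.332 CPM (log2 fold change 1.77). Besides UBE2L6, those called lower with the smallest adjusted p were EPSTI1 (log2 fold change -0.94) and IFI30, a thiol reductase of lysosomes (-0.43). Of 22 genes for peptide supply and class I loading 19 were tested, with 5 called higher and 8 lower, where 22.1% and 23.2% of all tested genes were. CALR and PDIA3, chaperones of the peptide loading complex that also fold glycoproteins in general, fell from 2422 ± 238 to 893 ± 33.3 CPM (log2 fold change -1.44, standard error 0.07, adjusted p = 1.32e-10) and from 595 ± 37.7 to 394 ± 2.08 CPM (log2 fold change -0.60, standard error 0.07, adjusted p = 1.58e-06). PSME2, a subunit of the proteasome activator that interferon gamma induces, was lower (log2 fold change -0.49). PSMB10, a catalytic subunit of the immunoproteasome, was higher (0.55), and so were the peptidase genes LNPEP (0.60) and NPEPPS (0.25), the last of which was lost without hyperoside replicate 1 (adjusted p = 0.0545).

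**Figure D5:**
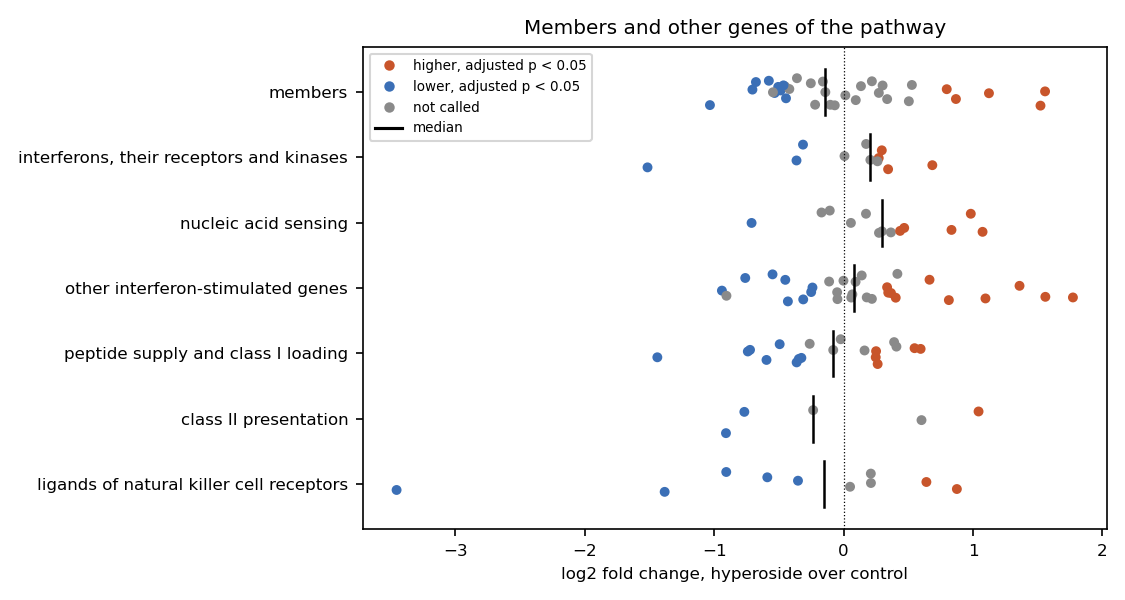
Log2 fold change in the hyperoside over the control group of each tested member (top row) and of each tested gene in 6 other lists of the pathway, with a black bar at the median of each row and a small vertical scatter for legibility. Orange and blue mark genes called higher and lower, and every row holds both.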

How the data were processed

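Total RNA of 6 K562 libraries (3 control and 3 hyperoside, grouped by the sample labels) was made into libraries with the VAHTS Universal V6 kit and sequenced on an Illumina instrument. The authors deposited raw counts per gene and FPKM values, counts scaled to gene length and library total. The submitters' processing notes name fastp, HISAT2, HTSeq and hg38, without versions. Annotation, strand setting and the treatment of reads shared by genes are not given in the sources used here.

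Counts were tested in R 4.3.3 with edgeR 4.0.16, with filterByExpr (minimum count 10, minimum total 15), TMM normalization and the quasi-likelihood test with the group as the only term, with Benjamini-Hochberg adjustment over 15095 genes. The study named DESeq, and DESeq2 1.42.0 and limma 3.58.1 on log2 FPKM served as alternatives. The standard error is the size of the log2 fold change divided by the square root of F. The fits were tested on simulated data. Replicates differed by more than counting error, with a chi-square per degree of freedom of 6.34 to 23.1.

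The members and lists were chosen with earlier results of these data known. Each called member, each antigen presentation member and each member with at least 1 FPKM in a group is given by library, and of other lists up to 3 called genes per direction with the smallest adjusted p. Other genes are marked as chosen after their values were seen. Promoters and positions came from RefSeq (GRCh38.p14), matched by NCBI gene number, and overlaps from GENCODE 29 (GRCh38). Alternatives covered normalization, filter, test, the replicate number as a block, and leaving out each library in turn. Tables and plots were made with pandas 2.3.3 and matplotlib 3.10.9.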

Additional observations from a re-analysis of the deposited data

How the results depend on the processing

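Of the 14 called members, 12 kept their direction and an adjusted p under 0.05 in every alternative that tested them, with IFIT2 and USP18 as the exceptions. The number of members called higher ranged from 4 to 6 and of members called lower from 8 to 10 when 1 library was left out, and other scalings of the libraries (RLE, upper quartile, totals only) left 5 and 9. Over all genes, the shift of the median log2 fold change by scaling was at most 0.05. USP18 was the single member called lower by more than 2-fold, and the number of such members was 0 with upper-quartile factors, with library totals only, in limma-trend on log2(FPKM + 1) and on log2(FPKM + 0.1), with the replicate block and in each fit that left out a library (0 to 0). USP18 lay close both to that fold and to the threshold of the test. The number of members higher by more than 2-fold was 0 in limma-trend on log2(FPKM + 1), where the added 1 shrinks the change of genes with low values, and 2 to 4 with a library left out. When a library was left out the sign turned in 4 members that were not called, with log2 fold changes of -0.76 to 0.50 for MX1, -0.091 to 0.88 for OAS1, -0.061 to 0.98 for OASL and -0.029 to 0.070 for HLA-E. Control and hyperoside libraries share replicate numbers in the labels, but same-numbered libraries did not deviate together (correlations of -0.08, -0.03 and -0.03 over genes), so the numbers were not taken as a pairing. With the replicate block 4 members were called higher and 8 lower, and over all genes 3026 higher and 3103 lower, against 3333 and 3508 without it. In the other lists of the pathway 26 genes were called higher and 24 lower with the block, against 27 each without it. Low counts limit IFIT5, IFI44, IFI44L, HERC5, OAS2, OAS1, OASL, MX1 and MX2, which had between 0 and 45 counts per library. In OAS1 and MX1 the spread between libraries of a group was also wide.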

Other observations

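Class II presentation and the ligands that natural killer cells recognize lie next to the class I pathway and were looked at as lists. The table held 10 class II genes, of which 5 were tested. Of these 1 was called higher and 2 lower, where 22.1% and 23.2% of all tested genes were. CD74 (log2 fold change 0.60, adjusted p = 0.491) and HLA-DMA (-0.23, adjusted p = 0.775) were tested and not called. The class II activator CIITA had 0 counts in every library, which allows up to 3 counts per library (counting error only), and HLA-DRA had 1 count in a single library. CTSS, a lysosomal protease that trims the invariant chain, was higher, from 16.5 ± 1.12 to 34.1 ± 3.46 CPM (SD, n = 3 each, log2 fold change 1.04, standard error 0.11, adjusted p = 4.30e-07). LGMN, another lysosomal protease, was lower (log2 fold change -0.77), and so was HLA-DOB (-0.91, adjusted p = 0.039), a call that was lost without control replicate 1 (adjusted p = 0.213), without hyperoside replicate 1 (0.154), without hyperoside replicate 3 (0.0856), with the replicate block (0.0627) and with library totals only (0.0556).

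Of 14 ligands of natural killer cell receptors 10 were tested, with 2 called higher and 5 lower, where 22.1% and 23.2% of all tested genes were. The list held 8 ligands of the activating receptor NKG2D, a subgroup looked at after its values were seen. Of these, ULBP3, RAET1E, RAET1G and RAET1L had at most 18 counts in any library and were not tested, and the other 4 were called lower. MICA fell from 30.0 ± 2.78 to 16.0 ± 1.38 CPM (log2 fold change -0.91, standard error 0.11, adjusted p = 2.63e-06), MICB from 67.8 ± 5.98 to 45.1 ± 1.49 CPM (log2 fold change -0.59, standard error 0.09, adjusted p = 2.54e-05) and ULBP1 from 11.5 ± 2.14 to 4.40 ± 0.440 CPM (log2 fold change -1.38, standard error 0.17, adjusted p = 3.19e-06). ULBP2, chosen after its values were seen, had 113, 100 and 87 counts in the control and 19, 8 and 1 counts in the hyperoside libraries (log2 fold change -3.45, standard error 0.51, adjusted p = 2.74e-05). In each of these 4 genes all hyperoside libraries were below all control libraries, as in 27.3% of all tested genes. The remaining lower gene was NECTIN2, a ligand of DNAM-1, with a log2 fold change of -0.35, also named after its values were seen. NCR3LG1, the ligand of the receptor NKp30, was higher (log2 fold change 0.64), as was CD48 (0.88). MICA and MICB are close copies of each other, so reads common to both make their counts uncertain. The protein levels of these ligands were not measured in these libraries.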
